A study of Mus musculus with 2 samples.

Results

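The hypoxia response and glycolysis genes described here are 10 genes fixed by name: *Hilpda*, *Vegfa*, *Slc2a1*, *Ldha*, *Pgk1*, *Bnip3*, *Egln3*, *Ndrg1*, *Pdk1* and *Hk2*. They are 10 of the 24785 genes listed in the count table of at least 1 library, and all 10 had counts in both libraries. The data were single-cell RNA sequencing of living CD45+ leukocytes sorted from lungs of wild-type C57BL/6N mice. The BLM library was made at day 15 after intratracheal bleomycin, a DNA-damaging drug used to model pulmonary fibrosis, from a pool of 3 mice aged 10 to 16 weeks. The naïve library was made from a pool of 3 untreated mice, whose age was not given. Each group was thus 1 library of pooled animals with no map from cell to mouse. No test between groups was possible, and group, library preparation and sequencing run cannot be told apart. Every interval below is a 95% interval of counting error only.

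Cells that lack oxygen stabilise the transcription factors HIF-1α and HIF-2α, which are otherwise hydroxylated by prolyl hydroxylases and destroyed. Stabilised HIF raises the transcription of genes for glucose uptake, glycolysis, vessel growth and mitochondrial turnover, and inflammatory signals can do the same in leukocytes at normal oxygen. The 10 genes are well known targets of HIF. *Hilpda* encodes a lipid droplet protein that inhibits triglyceride breakdown, *Vegfa* a growth factor for blood vessels and *Ndrg1* a stress-responsive cytoplasmic protein. *Slc2a1* (GLUT1) carries glucose into the cell, *Hk2* phosphorylates it, *Pgk1* makes ATP in glycolysis, *Ldha* reduces pyruvate to lactate and *Pdk1* keeps pyruvate out of the mitochondria. *Bnip3* promotes the removal of mitochondria, and *Egln3* (PHD3) is a prolyl hydroxylase that acts on HIF itself.

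HIF binds DNA at sites with the core letters ACGTG or GCGTG, so the bases upstream of the genes were searched for both on either strand, where they read CACGT or CACGC. RefSeq promoters of build GRCm38.p6 were found for 9 of the 10 genes (*Ndrg1*, at chr15:66929318-66969640 on the minus strand, had none). All 9 held at least 1 core within 250 bases upstream of an annotated start, as did 10 of their 13 start sites (76.9%) against 38.6% of all 32851 promoters searched in the same way. *Hilpda* and *Vegfa* held no core upstream of their first start and count only through a second start. A short stretch just after the second *Vegfa* start and the first *Ldha* start was found in no annotated transcript of the gene. *Ldha*, whose window below is from that first start, also held a core upstream of its second start. A match is only a run of letters and was not measured as a bound site. For each gene the core nearest the start that has 8 bases on either side within the searched stretch is shown with those bases, 5′ to 3′ on the strand of the gene, with every core in capitals. The windows of *Hilpda* and *Vegfa* lie upstream of a second start and within annotated exons (*Hilpda* has another core, GCGTG, 8 bases from that start), and 11 of 21 bases of the *Slc2a1* window are exonic.
Hilpda (chr6:29272575-29272595, plus strand): gccagcggACGTGccccaggg
Vegfa (chr17:46025362-46025382, minus strand): tGCGTGccCACGTcagagagc
Slc2a1 (chr4:119108701-119108721, plus strand): cgccccggACGTGctccccag
Ldha (chr7:46845762-46845782, plus strand): ggttcccgCACGTccgctggg
Pgk1 (chrX:106186961-106186981, plus strand): ggaagtagCACGTctcactag
Bnip3 (chr7:138909529-138909549, minus strand): ccgccgccGCGTGcgtcccgc
Egln3 (chr12:54204091-54204111, minus strand): catctcagACGTGagatccag
Pdk1 (chr2:71873138-71873158, plus strand): ctacatggGCGTGtctttaac
Hk2 (chr6:82774494-82774514, minus strand): agcacatcCACGTcactgtcc
The whole 250 bases upstream of the first start are shown for *Egln3*, which had the largest BLM to naïve ratio in neutrophils, and for *Pdk1*, which was below 0 in all 4 classes where it could be compared. Each held 1 core, 229 bases from the start in *Egln3* and 78 bases from it in *Pdk1*.
Egln3 (chr12:54203875-54204124, minus strand): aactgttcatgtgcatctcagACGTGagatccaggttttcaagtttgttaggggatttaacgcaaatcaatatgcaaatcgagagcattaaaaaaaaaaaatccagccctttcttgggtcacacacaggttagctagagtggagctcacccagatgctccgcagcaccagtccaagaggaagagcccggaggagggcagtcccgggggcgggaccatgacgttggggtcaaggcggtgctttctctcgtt
Pdk1 (chr2:71872974-71873223, plus strand): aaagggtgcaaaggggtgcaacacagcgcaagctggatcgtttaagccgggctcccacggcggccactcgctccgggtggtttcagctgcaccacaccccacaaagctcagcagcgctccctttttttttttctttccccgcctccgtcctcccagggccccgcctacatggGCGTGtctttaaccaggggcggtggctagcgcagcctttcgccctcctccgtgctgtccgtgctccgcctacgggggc

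After filtering, 4399 BLM cells with 21270963 UMIs and 3811 naïve cells with 16864634 UMIs remained, with a median of 2383 and 2699 UMIs per cell. A UMI (unique molecular identifier) stands for 1 captured mRNA molecule. Cells were placed in classes by marker genes, none of which is among the 10, and in each class named here its own markers led. The classes are gates, not pure populations: 1004 BLM and 522 naïve cells stayed ungated, and of the 70 BLM alveolar macrophages 60% lay next to the gate. The CD45 sort still let through 34 and 16 cells with stromal markers. The libraries shared 17 cell indices among kept cells. Levels are given as CPM, the UMIs of a gene per 1000000 UMIs of all cells in the class. A BLM to naïve ratio was called when it reached 2-fold with at least 20 UMIs over both libraries, and classes were compared when both libraries held at least 50 cells. Orders of level cover classes with at least 20 cells in the library. Fewer expressing cells and less RNA per cell are not separated by CPM.

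Over all kept cells, *Hilpda* was at 676 CPM (interval 665 to 688) in BLM and 326 CPM (317 to 335) in naïve lungs. *Slc2a1* (39.9 against 21.9 CPM), *Ndrg1* (71.8 against 30.8 CPM) and *Hk2* (105 against 48.1 CPM) were also higher in the BLM library, whereas *Bnip3* was at 20.7 and 20.1 CPM. *Pdk1* went the other way, at 15.9 CPM in BLM and 26.8 CPM in naïve cells. Cell types differed in number between the libraries, so the genes were next compared within classes. In 8 classes 67 gene-class pairs had enough UMIs. Of these, 45 were higher and 22 lower in BLM, 17 were called higher and 1 lower. The calls lay in 5 classes, and none of the 10 genes was called in B cells, NK cells or classical monocytes.

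**Figure D1:**
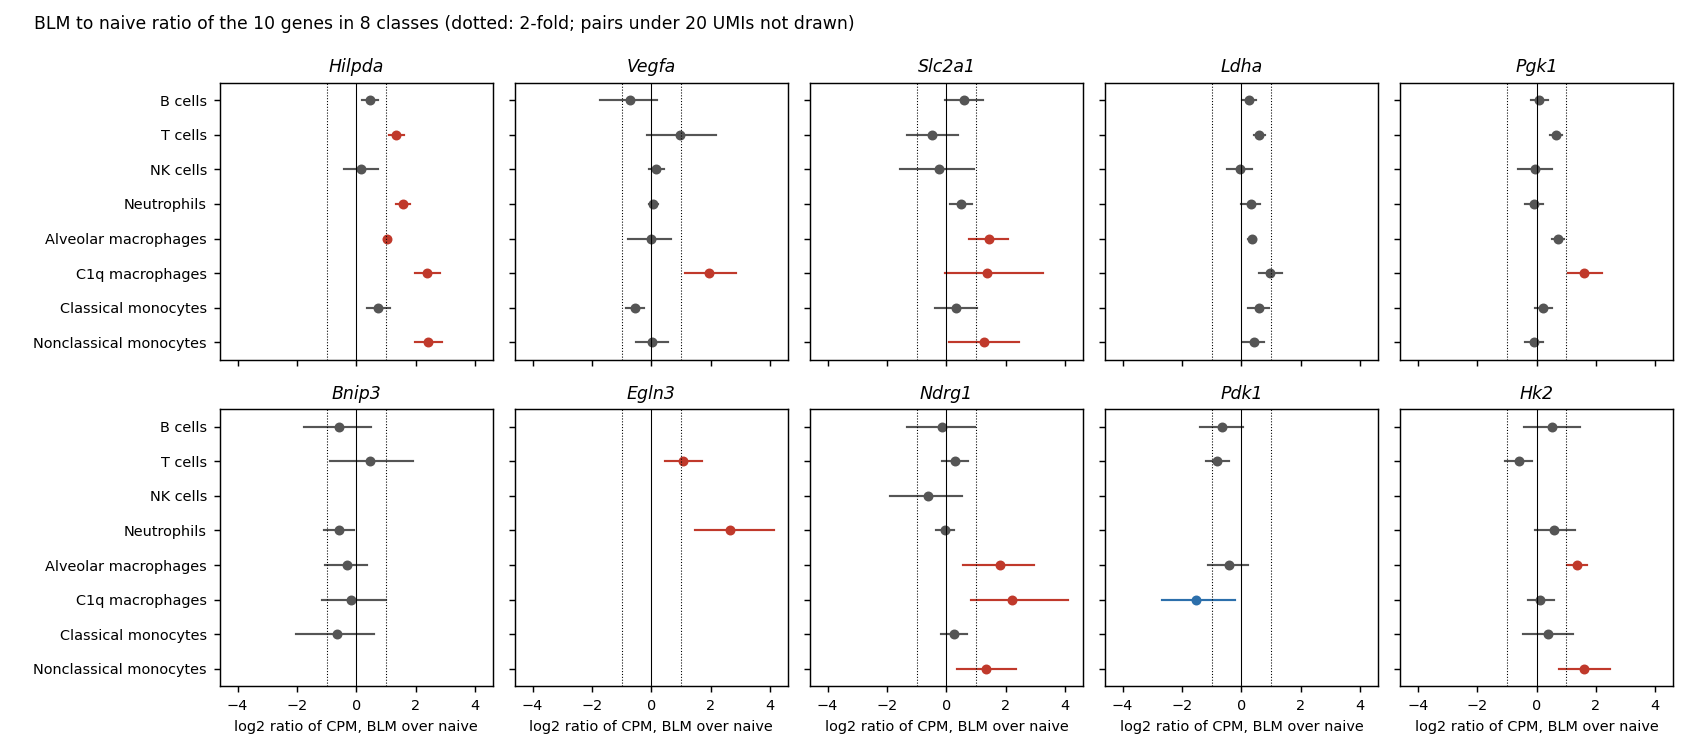
BLM to naïve log2 ratio of CPM (horizontal axis) for each of the 10 genes in 8 cell classes (rows), with 95% intervals of counting error from 1 library per group. Dotted lines mark 2-fold, red points are called higher and the blue point is called lower in BLM. *Hilpda* lies above 0 in all 8 classes, and *Pdk1* below 0 in all 4 classes where it could be compared.

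*Hilpda* was higher in BLM in all 8 classes, and called in 5. In C1q macrophages, which express complement C1q and are found outside the alveolar space in healthy lung, it was at 781 CPM (3487 UMIs in 402 cells) in BLM and at 151 CPM (49 UMIs in 63 cells) in naïve lungs, a log2 ratio of 2.37 (interval 1.96 to 2.80). In neutrophils it was at 658 against 222 CPM, a log2 ratio of 1.57 (1.33 to 1.82), and in T cells at 279 against 110 CPM, a log2 ratio of 1.35 (1.10 to 1.60). In BLM 79 of the 674 T cells had a *Foxp3* UMI, and these held 289 of the 556 *Hilpda* UMIs. In naïve lungs 19 of 542 T cells did, and held 15 of 171. In CD8 T cells the log2 ratio was 0.51 (-0.04 to 1.06). Markers of ILC2, the class with most *Hilpda*, summed to 452 CPM in BLM (7 of 8 detected) and 174 CPM in naïve T cells (6 of 8), with *Gata3*, which T cells also express, at 243 and 111 CPM. The part of *Foxp3* cells or of ILC2 in the T cell value was not tested. Alveolar macrophages, the lipid-handling resident cells of the airspace, were already at 552 CPM in naïve lungs and at 1124 CPM in BLM, a log2 ratio of 1.03 (0.93 to 1.12). This last value stood at the call limit and was 0.92 to 0.96 under a looser gate, a stricter gate or equal weight for each cell. The ratio was lower in classical monocytes (0.75, 0.37 to 1.13) and B cells (0.46, 0.18 to 0.74), and in NK cells its interval included 0 (0.17, -0.41 to 0.74).

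In nonclassical monocytes *Hilpda* was at 391 against 72.8 CPM, a log2 ratio of 2.42 (1.98 to 2.88), but few cells carried it. The 2% of BLM cells with most *Hilpda* held 55% of its 179 UMIs, and the highest cell alone held 35. After each cell was thinned to 1000 UMIs, 10.1% of BLM and 4.9% of naïve cells had a *Hilpda* UMI, at median depths of 2388 and 3968 UMIs. The BLM share was no higher than that of BLM B cells (10.8%, and 8.5% in naïve B cells). With clusters in place of gates the log2 ratio was 0.30. Markers of alveolar macrophages moved with it: their 8 genes summed to 823 CPM in BLM (6 of 8 detected, of which *Plet1* alone 502 CPM) and to 272 CPM (8 of 8) in naïve nonclassical monocytes. C1q macrophage markers (8 of 8 in both) summed to 273 and 143 CPM. Their part in the *Hilpda* value was not tested. In neutrophils the same sums were similar between libraries (257 against 218 CPM for alveolar and 142 against 178 CPM for C1q macrophage markers), and 24.9% of thinned BLM against 11.2% of thinned naïve neutrophils had a *Hilpda* UMI at median depths of 1334 and 1580 UMIs, with 127 and 12 shallower cells left out. In T cells these shares were 15.5% and 8.4%.

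The order of classes by *Hilpda* level was led in both libraries by ILC2, the type 2 innate lymphoid cells, at 1701 CPM (1468 to 1961) in 26 BLM cells and 1552 CPM (1343 to 1786) in 54 naïve cells. Their log2 ratio was 0.13 (-0.16 to 0.43), so the class with the highest level showed no difference beyond counting error. A *Hilpda* UMI was seen in 22 of 26 BLM and 38 of 54 naïve ILC2. None of the 3 genes with enough UMIs was called in ILC2, where 6.51% of all genes were higher and 9.37% lower. Of the naïve ILC2, 74.1% lay next to the gate. Alveolar macrophages came second in both libraries. C1q macrophages and neutrophils followed in BLM, each apart from its neighbour, whereas in naïve lungs C1q macrophages (151 CPM), NK cells (130 CPM), classical monocytes (130 CPM), T cells (110 CPM) and B cells (108 CPM) formed a run whose neighbours did not differ beyond their intervals.

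**Figure D2:**
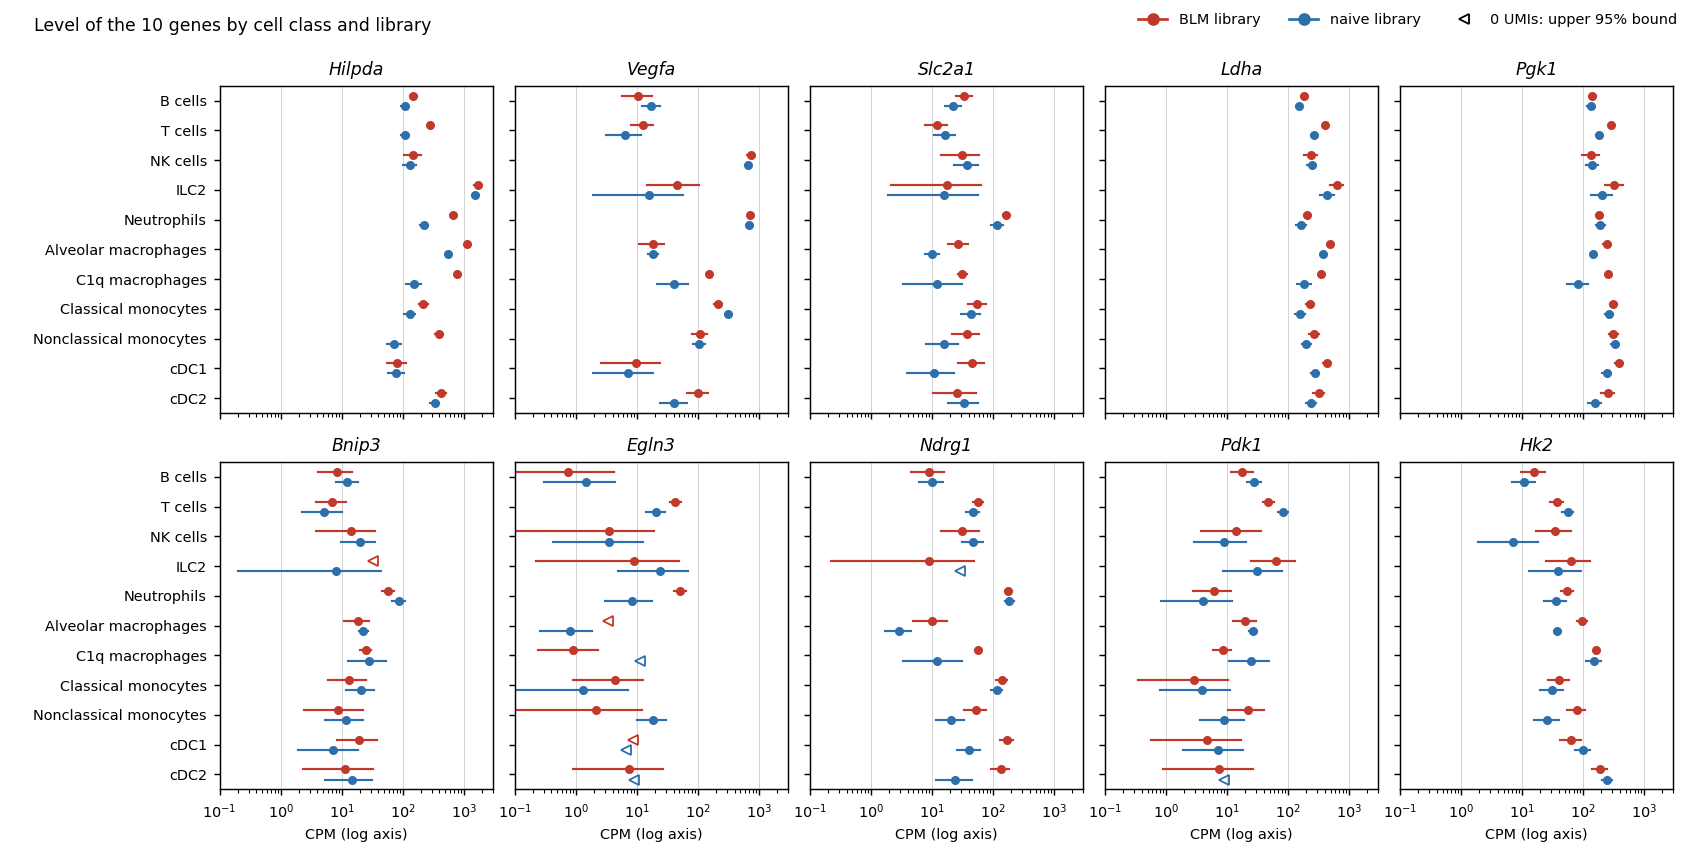
Level of each of the 10 genes in CPM (log axis) in 11 cell classes (rows), with BLM in red, naïve in blue and 95% Poisson intervals. Open triangles give the upper bound where no UMI was seen. *Hilpda* is highest in ILC2 in both libraries, and *Vegfa* stands far higher in NK cells and neutrophils than in lymphocytes of the T and B lineages.

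*Egln3* was low and unevenly spread. Neutrophils held 75 UMIs (51.4 CPM) in BLM and 6 UMIs (8.2 CPM) in naïve lungs, a log2 ratio of 2.65 (1.46 to 4.14). T cells held 86 UMIs (43.1 CPM) in BLM and 32 (20.5 CPM) in naïve lungs, a log2 ratio of 1.07 (0.47 to 1.71). That value was 0.98 with a looser gate and 0.97 with clusters. T cells held 43% and neutrophils 37.5% of the 200 *Egln3* UMIs of the BLM library, and 39.0% and 7.3% of the 82 of the naïve library. The macrophages held almost none, with 0 and 5 UMIs in BLM and naïve alveolar macrophages and 4 and 0 UMIs in C1q macrophages. Nonclassical monocytes held 1 UMI in BLM and 14 in naïve lungs, under the limit of 20 for a call. Because most of its UMIs came from BLM cells, *Egln3* reached that limit in neutrophils only through the BLM library. Of 1005 BLM neutrophils, 52 had an *Egln3* UMI. Between these and the other 953 none of the other 8 genes with enough UMIs differed by 2-fold, where 8.03% of all genes were higher and 9.83% lower. *Hilpda* was at 810 against 650 CPM, a log2 ratio of 0.32 (-0.09 to 0.70), and *Vegfa* at 892 against 702 CPM, a log2 ratio of 0.35 (-0.04 to 0.71). In naïve lungs only 6 neutrophils had an *Egln3* UMI. There 4 of 8 genes were called higher (17.8% of all genes, and 3.17% lower), *Ndrg1* on 7 UMIs, *Vegfa* on 14 and *Bnip3* and *Hk2* on 2 and 1. These splits were chosen after the values had been seen.

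*Vegfa* had another pattern. Among classes of at least 20 cells it was highest in NK cells (736 CPM in BLM, 654 CPM in naïve lungs) and neutrophils (712 and 681 CPM). These classes did not differ beyond their intervals from each other in either library, and neither differed between libraries, with log2 ratios of 0.17 (-0.08 to 0.42) and 0.06 (-0.09 to 0.22). After thinning, 43.6% of BLM NK cells and 34.3% of BLM neutrophils had a *Vegfa* UMI, against 1.2% of BLM T cells (median depths of 2066.5, 1334 and 2551.5 UMIs). The difference between libraries lay in C1q macrophages, at 153 CPM (682 UMIs) in BLM and 40.1 CPM (13 UMIs) in naïve lungs, a log2 ratio of 1.93 (1.14 to 2.84). It was 0.97 when the doublets were kept. Classical monocytes went the other way, at 216 against 316 CPM, a log2 ratio of -0.55 (-0.85 to -0.25). In cDC2, a class of conventional dendritic cells with 38 BLM and 57 naïve cells, *Vegfa* was at 100 against 41.4 CPM on 27 and 17 UMIs. This log2 ratio of 1.28 (0.35 to 2.24) was also called higher, and was 0.57 with a stricter gate. Alveolar macrophages stayed low in both libraries (18.1 and 18.4 CPM).

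The genes of glucose entry were called in macrophages, nonclassical monocytes and cDC1, a class of conventional dendritic cells. *Slc2a1* was highest in neutrophils, at 166 CPM in BLM and 118 CPM in naïve lungs (log2 ratio 0.49, 0.13 to 0.87). It was called higher in alveolar macrophages (27.2 against 10.1 CPM, log2 ratio 1.43, 0.76 to 2.08). The calls in nonclassical monocytes (37.1 against 15.6 CPM, log2 ratio 1.25, 0.10 to 2.45) and C1q macrophages (31.6 against 12.3 CPM, log2 ratio 1.35, -0.03 to 3.25) rested on 12 and 4 naïve UMIs, and with clusters these values were 0.79 and 0.74. In cDC1, with 47 BLM and 76 naïve cells, *Slc2a1* was at 45.3 against 10.7 CPM on 19 and 6 UMIs, a log2 ratio of 2.09 (0.70 to 3.70), and it passed 2-fold in the 9 alternatives that gave a value. *Hk2* was called higher in alveolar macrophages (96.1 against 37.5 CPM, log2 ratio 1.36, 1.01 to 1.69) and nonclassical monocytes (78.6 against 26.0 CPM, log2 ratio 1.60, 0.77 to 2.46). The latter was 0.51 with clusters and 0.93 with each cell weighted equally. In C1q macrophages *Hk2* was at 166 and 151 CPM, a log2 ratio of 0.13 (-0.29 to 0.58). T cells were lower in BLM (37.1 against 56.4 CPM, log2 ratio -0.60, -1.07 to -0.14).

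Further down the pathway, *Pgk1* was called higher in 1 of the 8 classes, C1q macrophages, at 253 CPM in BLM and 83.4 CPM in naïve lungs, a log2 ratio of 1.60 (1.05 to 2.21). *Ldha* was called in none of the 8 classes. It was nevertheless above 0 in 7 of them, with the largest ratio in C1q macrophages (353 against 182 CPM, log2 ratio 0.95, 0.58 to 1.35) and smaller ratios in T cells (0.61, 0.43 to 0.78) and alveolar macrophages (0.37, 0.23 to 0.50). *Pdk1* was the exception among the enzymes. It was called lower in C1q macrophages, at 8.5 against 24.7 CPM (38 and 8 UMIs), a log2 ratio of -1.54 (-2.66 to -0.23), which became -0.73 with clusters and -0.96 with a limit of 10% mitochondrial UMIs. In T cells, the class with most *Pdk1* in naïve lungs, it was at 47.6 against 83.3 CPM, a log2 ratio of -0.81 (-1.20 to -0.41). How the pipeline assigned reads that fit both a glycolytic gene and its pseudogene copies was not given in the sources used here, so the levels of *Ldha* and *Pgk1* are less certain than the others.

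*Ndrg1* and *Bnip3* both stood high in neutrophils but differed elsewhere. *Ndrg1* in neutrophils was at 180 CPM in BLM and 186 CPM in naïve lungs (log2 ratio -0.05, -0.35 to 0.26). It was called higher in C1q macrophages (57.1 against 12.3 CPM, log2 ratio 2.21, 0.83 to 4.10, on 255 and 4 UMIs), alveolar macrophages (11 UMIs in 70 cells against 18 in 599, 1.79, 0.57 to 2.95) and nonclassical monocytes (52.4 against 20.8 CPM, 1.33, 0.36 to 2.34). The last was 0.42 with a looser gate. Among BLM classes of at least 20 cells it was highest in migratory dendritic cells, at 580 CPM (511 to 656) in 69 BLM cells, where 50 cells had an *Ndrg1* UMI. The naïve library had 13 such cells, too few for a comparison. Its 10 basophils and mast cells, also too few, held 28 *Ndrg1* UMIs. In cDC1 and cDC2, the conventional dendritic cells, which had under 50 cells in BLM, *Ndrg1* was at 169 against 40.9 CPM (log2 ratio 2.05, 1.35 to 2.79) and at 134 against 24.4 CPM (2.46, 1.42 to 3.63). In these classes 2 of 6 and 2 of 7 genes were called higher and none lower, where 5.41% and 7.33% of all genes were higher and 9.33% and 8.68% lower. Among these calls, *Slc2a1* in cDC1 (19 and 6 UMIs) and *Ndrg1* in cDC2 (36 and 10) reached 20 UMIs only through the BLM library. *Bnip3* was not called in any class. In neutrophils, its highest class among those compared, it was lower in BLM (57.6 against 86.3 CPM, log2 ratio -0.58, -1.07 to -0.09), and 5 of its 6 ratios were below 0.

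Counts of calls by class are given beside the share of all genes called. In C1q macrophages 5 of 9 genes with enough UMIs were called higher and 1 lower, where 11.6% of the 9398 genes tested were called higher and 14.5% lower. The naïve UMIs behind the higher calls were few, with 4 each for *Slc2a1* and *Ndrg1*, 13 for *Vegfa*, 27 for *Pgk1* and 49 for *Hilpda*. The median log2 ratio was 1.35 for the 9 genes and -0.06 for all genes. In alveolar macrophages 4 of 9 were called higher and none lower, against 4.38% and 12.4% of 10015 genes, with medians of 0.72 and -0.21. C1q macrophage markers (8 of 8 in both) summed to 245 CPM in BLM and 106 CPM in naïve alveolar macrophages, and 21 of 70 BLM against 55 of 599 naïve cells were cycling. The part of either in these calls was not tested. In nonclassical monocytes 4 of 7 were called higher and none lower, against 6.06% and 4.81% of 6077 genes, with medians of 1.25 and -0.02. With clusters 1 of these 4, *Ndrg1*, passed 2-fold, and with a looser gate it was at 0.42, so each of the 4 was lost under at least 1 alternative. *Slc2a1* reached 20 UMIs there only through the BLM library. Neutrophils had 2 of 9 called higher and none lower, against 6.59% and 5.04% of 5931 genes, although *Egln3*, 1 of the 2, was counted only through its BLM UMIs. T cells had 2 of 10 called higher and none lower, against 3.49% and 3.88% of 9052 genes. No gene of the 10 was called in B cells (0 of 9), where 1.47% of all genes were higher and 4.42% lower. The same held for NK cells (0 of 6, against 2.38% and 6.41%) and classical monocytes (0 of 8, against 5.46% and 4.32%). Only genes with enough UMIs enter these counts, so they describe the genes seen and not all 10. Clusters in place of gates left 13 pairs called higher and 1 lower.

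**Figure D3:**
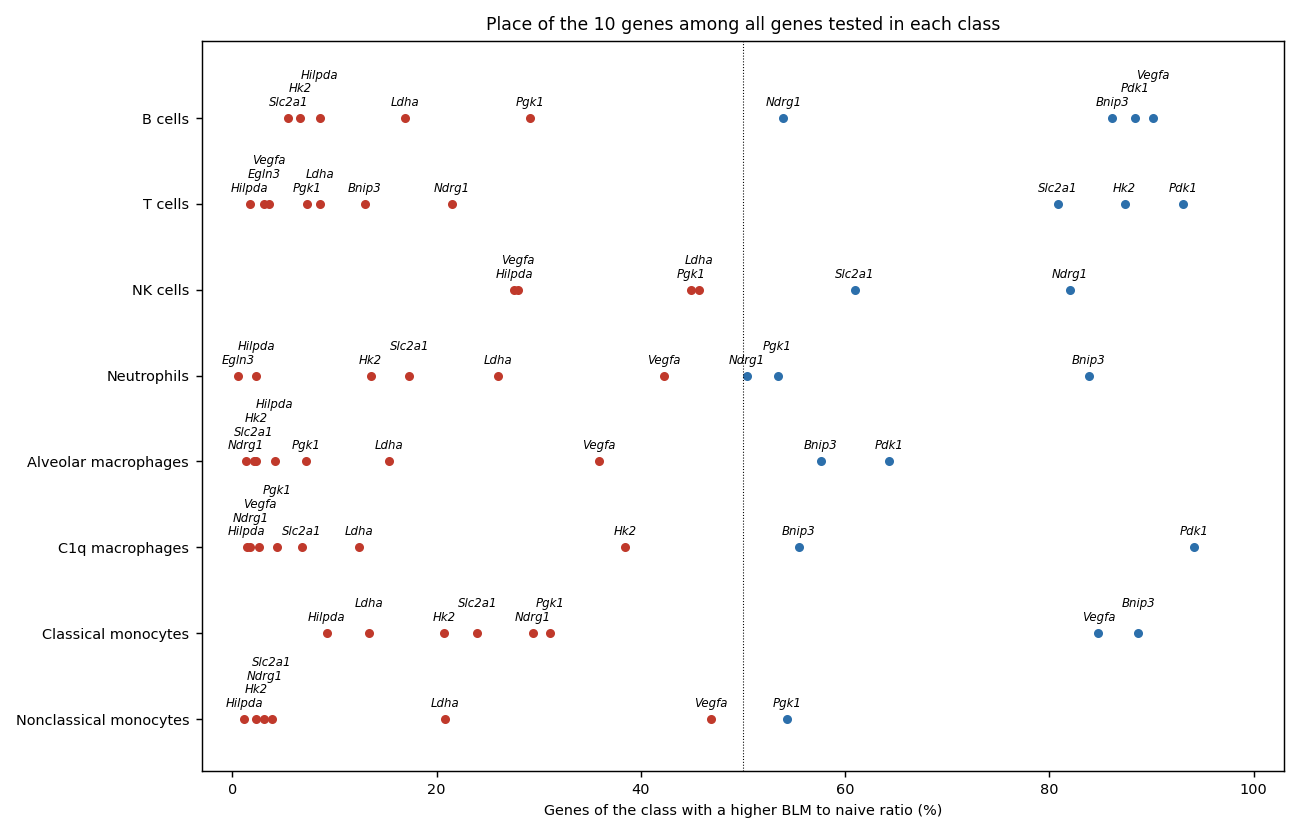
Place of the 10 genes among all genes tested in each of 8 classes, as the percentage of genes with a higher BLM to naïve ratio (0 is the top, the dotted line the middle). *Hilpda* lies within the top 10% in 7 classes and *Pdk1* beyond the middle wherever it is drawn.

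The C1q class held 63 naïve and 402 BLM cells. Its 8 defining markers summed to 12720 CPM in naïve and 6400 CPM in BLM cells, with a median of 4913 and 10448.5 UMIs per cell. Alveolar macrophage markers (7 of 8 in both) summed to 167 and 402 CPM. Their part in the results was not tested, and a change in the mix of macrophages cannot be told apart from a change within cells. Clusters placed 944 BLM and 67 naïve cells in the class. The largest of the BLM clusters held 456 cells, of which 109 were gated, 63.3% of these as C1q macrophages. With clusters the log2 ratio was 2.71 for *Hilpda*, 1.83 for *Vegfa*, 1.65 for *Pgk1* and 1.57 for *Ndrg1*. When both macrophage lists made 1 class (500 BLM and 667 naïve cells, added after the data had been seen), *Hilpda* had a log2 ratio of 0.70 (0.64 to 0.76), *Vegfa* 2.63, *Slc2a1* 1.61 and *Ndrg1* 3.75, while *Ldha* (0.05) and *Bnip3* (0.01) were near 0. The naïve side of that class was mostly alveolar macrophages, and the BLM side mostly C1q macrophages.

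Fibrosis-associated macrophages express *Spp1*, *Arg1* and *Gpnmb*, so BLM macrophages were split by these genes, none of which is among the 10. Of 402 BLM C1q macrophages, 294 had a UMI of 2 or 3 of them. No gene of the 10 differed by 2-fold from the other 108 cells, where 6.16% of all genes were higher and 4.89% lower. *Hilpda* was at 828 against 542 CPM, a log2 ratio of 0.61 (0.46 to 0.76), and *Ldha* at 375 against 242 CPM, a log2 ratio of 0.63 (0.40 to 0.86). The intervals of *Slc2a1* (-0.10, -0.74 to 0.58), *Hk2* (-0.24, -0.51 to 0.03) and *Ndrg1* (0.03, -0.46 to 0.54) included 0. The first cells were deeper, with a median of 12085 against 6528.5 UMIs. After thinning to 1000 UMIs, 42.3% against 26.3% had a *Hilpda* UMI. Among BLM alveolar macrophages 63 of 70 met the split, which left 7 cells on the other side. Of 8 genes there 1 was called lower, *Slc2a1* on 3 UMIs in the 7 cells, and none higher (12.9% and 7.22% of all genes).

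Regulatory T cells, which express *Foxp3* and restrain other T cells, were compared with CD4 T cells without *Foxp3* in each library. In BLM 79 *Foxp3* T cells had *Hilpda* at 805 CPM (715 to 903) and 145 CD4 T cells at 184 CPM, a log2 ratio of 2.13 (1.75 to 2.52). A *Hilpda* UMI was found in 49 of the 79 cells. After thinning the shares were 41.2% and 12.7%, at median depths of 3105 and 2346 UMIs. *Hilpda* was the 1 gene of 7 called higher (8.46% of all genes) and *Pdk1* the 1 called lower (7.24%), at 16.7 against 51.2 CPM, a log2 ratio of -1.61 (-3.22 to -0.25). That *Pdk1* call rested on 6 and 20 UMIs and reached the limit of 20 only through the CD4 T cells. *Ldha* (658 against 486 CPM, log2 ratio 0.44, 0.15 to 0.72) and *Pgk1* (443 against 305 CPM, 0.54, 0.19 to 0.90) were higher by less than 2-fold. *Egln3* was at 83.6 against 48.6 CPM, with an interval that included 0 (-0.09 to 1.69). The naïve library had 19 *Foxp3* T cells. There *Hilpda* was at 170 against 90.9 CPM (log2 ratio 0.90, -0.13 to 1.89), *Ndrg1* at 147 against 41.7 CPM (1.82, 0.55 to 3.12), *Pgk1* at 328 against 144 CPM (1.19, 0.44 to 1.92) and *Pdk1* at 34.0 against 83.3 CPM (-1.30, -3.68 to 0.44). Thus 2 of 5 genes were called higher (8.67% of all genes) and 1 lower (11.3%). Among these calls, *Ndrg1* (13 and 11 UMIs) reached 20 UMIs only through the *Foxp3* T cells. *Pdk1* (3 and 22 UMIs) reached it only through the CD4 T cells. Whether the 2 libraries differ in this contrast was not tested.

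CD4 T cells without *Foxp3* also differed between the libraries. *Hilpda* (184 against 90.9 CPM), *Ldha* (486 against 242 CPM), *Pgk1* (305 against 144 CPM) and *Egln3* (48.6 against 11.4 CPM) were called higher in BLM, 4 of 6 genes with enough UMIs and none lower, where 6.96% of all genes were higher and 7.25% lower. The log2 ratio was 1.02 (0.33 to 1.75) for *Hilpda* and 1.08 (0.54 to 1.65) for *Pgk1*, and that of *Ldha* stood at the call limit (interval 0.59 to 1.44). *Egln3* rested on 19 and 3 UMIs (2.10, 0.33 to 4.5). *Egln3* had enough UMIs only through the BLM library, so it entered the 4 of 6 only because it was high there. With the doublets kept, *Hilpda* was at 0.77, *Ldha* at 0.53 and *Pgk1* at 0.79. In CD8 T cells none of 7 genes was called, where 2.45% of all genes were higher and 5.2% lower.

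Cycling cells were also compared with the others of their class. A cell was flagged as cycling if it had UMIs of at least 3 of *Mki67*, *Top2a*, *Birc5*, *Cdk1*, *Ccnb1*, *Ube2c*, *Pclaf* and *Stmn1*. Deeper cells pass this rule more easily. In BLM 41 of 674 T cells met it, against 13 of 542 in naïve lungs. BLM cycling T cells had *Hilpda* at 516 CPM, *Ldha* at 750 CPM and *Pgk1* at 549 CPM. The other BLM T cells were at 236, 345 and 242 CPM, log2 ratios of 1.13, 1.12 and 1.18. Median depths were 6004 UMIs in the cycling and 2484 UMIs in the other cells. After thinning, 31.3% against 14.4% had a *Hilpda* UMI, 45.4% against 27.7% an *Ldha* UMI and 35.8% against 19.0% a *Pgk1* UMI. *Pdk1* (13.2 against 53.7 CPM, log2 ratio -2.02) and *Vegfa* (on 2 UMIs in cycling cells) were called lower, so that 3 of 9 genes were higher and 2 lower where 12.8% and 14.9% of all genes were.

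In macrophages cycling cells went the other way for *Hilpda*. In BLM C1q macrophages 38 cycling cells were at 584 CPM and 364 others at 811 CPM, a log2 ratio of -0.47 (-0.64 to -0.31). In alveolar macrophages the values were 970 against 1217 CPM in BLM (-0.33, -0.50 to -0.15) and 371 against 578 CPM in naïve lungs (-0.64, -0.82 to -0.47). *Vegfa* was called lower in cycling cells in all 3 comparisons, at -1.53 in C1q macrophages and at -2.44 and -1.13 in BLM and naïve alveolar macrophages, the last pair on 2 and 7 UMIs in cycling cells. *Pdk1* was also called lower in cycling C1q macrophages (-1.49, on 2 UMIs), and no gene was called higher. Calls over all genes in C1q macrophages were 8.44% higher and 5.35% lower, in BLM alveolar macrophages 6.52% and 4.61%, and in naïve alveolar macrophages 6.51% and 3.35%. Cycling macrophages were deeper, with a median of 14399 against 10064 UMIs in BLM C1q macrophages. The difference between T cells and macrophages was not tested.

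**Figure D4:**
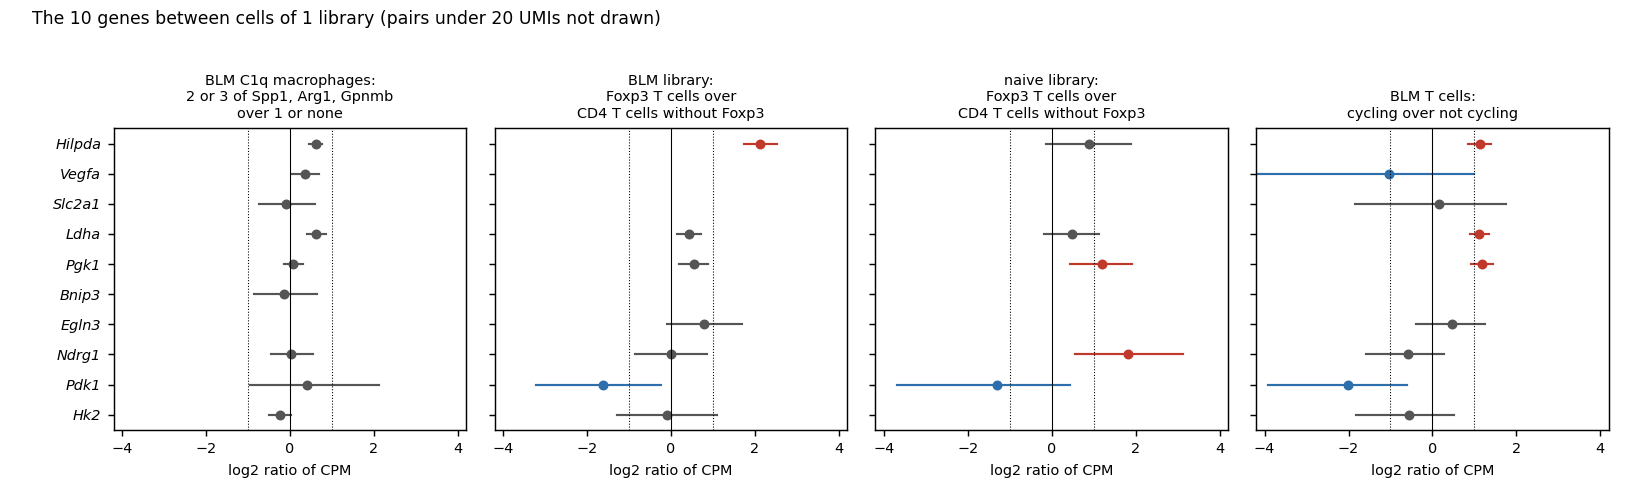
Log2 ratio of CPM for the 10 genes between groups of cells of the same library, with 95% intervals of counting error. Dotted lines mark 2-fold, red is higher and blue lower by 2-fold, and genes under 20 UMIs are not drawn. *Hilpda* is 4-fold higher in BLM *Foxp3* T cells than in CD4 T cells, and *Pdk1* lies at or below -1 in both T cell contrasts of the BLM library and in the naïve one.

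The other genes of the pathway were 38 glycolytic enzymes and transporters, HIF subunits and regulators, and further HIF targets. In C1q macrophages 14 of 33 with enough UMIs were called higher and 2 lower, where 11.6% and 14.5% of all genes were. In alveolar macrophages 5 of 32 were higher and 1 lower, where 4.38% and 12.4% of all genes were. In C1q macrophages the largest ratios were those of the glycolytic enzyme *Pgam1* (436 against 74.1 CPM, log2 ratio 2.56), the glycolytic activator *Pfkfb3* (47.2 against 191 CPM, -2.02) and the mTORC1 inhibitor *Ddit4* (22.8 against 6.2 CPM, 1.89, on 2 naïve UMIs). *Gapdh*, *Aldoa*, *Pkm* and *Eno1*, further glycolytic enzymes named after their values had been seen, had log2 ratios of 1.37, 1.58, 1.44 and 1.41. In alveolar macrophages the HIF-2α gene *Epas1* was at 64.4 against 10.9 CPM (2.57), the lactate transporter *Slc16a1* at 30.8 against 10.4 CPM (1.57) and *Pgam1* at 520 against 184 CPM. *Hif1a*, also named after its values had been seen, was above 0 in all 8 classes and called higher in alveolar (116 against 50.3 CPM, 1.21) and C1q macrophages (146 against 58.7 CPM, 1.32).

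Outside macrophages few pathway genes were called in the rest of the 8 classes. In neutrophils 2 of 29 were higher and 1 lower (6.59% and 5.04% of all genes), in classical monocytes 2 and 1 of 26 (5.46% and 4.32%), in nonclassical monocytes 0 and 1 of 28 (6.06% and 4.81%), in B cells 1 and 1 of 32 (1.47% and 4.42%), in T cells 1 and 0 of 30 (3.49% and 3.88%) and in NK cells 1 and 3 of 26 (2.38% and 6.41%). At these counts single calls do not stand apart from the share over all genes. Within the T cells, the CD4 T cells without *Foxp3* had 7 of 21 higher and 0 lower (6.96% and 7.25% of all genes). CD8 T cells had 2 higher and 2 lower of 26 (2.45% and 5.2%). Neutrophils had *P4ha1*, a collagen prolyl hydroxylase subunit (log2 ratio 1.25), and *Fam162a* (1.14) higher, on 4 and 5 naïve UMIs, and *Pfkfb4* lower (-1.08). *Ddit4* was higher in T cells (1.17) and B cells (1.51) and lower in nonclassical monocytes (-1.17). B cells had less of the lipid droplet coat gene *Plin2* (7.5 against 39.2 CPM, -2.39). NK cells had less of the glucose transporter *Slc2a3* (13.9 against 53.3 CPM, -1.93) and the histone demethylase *Kdm3a* (-1.58) and more *Mxi1* (80.2 against 23.1 CPM). Classical monocytes had more *Slc16a1* (1.67) and *Pfkl* (1.03) and less *Slc16a3* (-1.01).

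**Figure D5:**
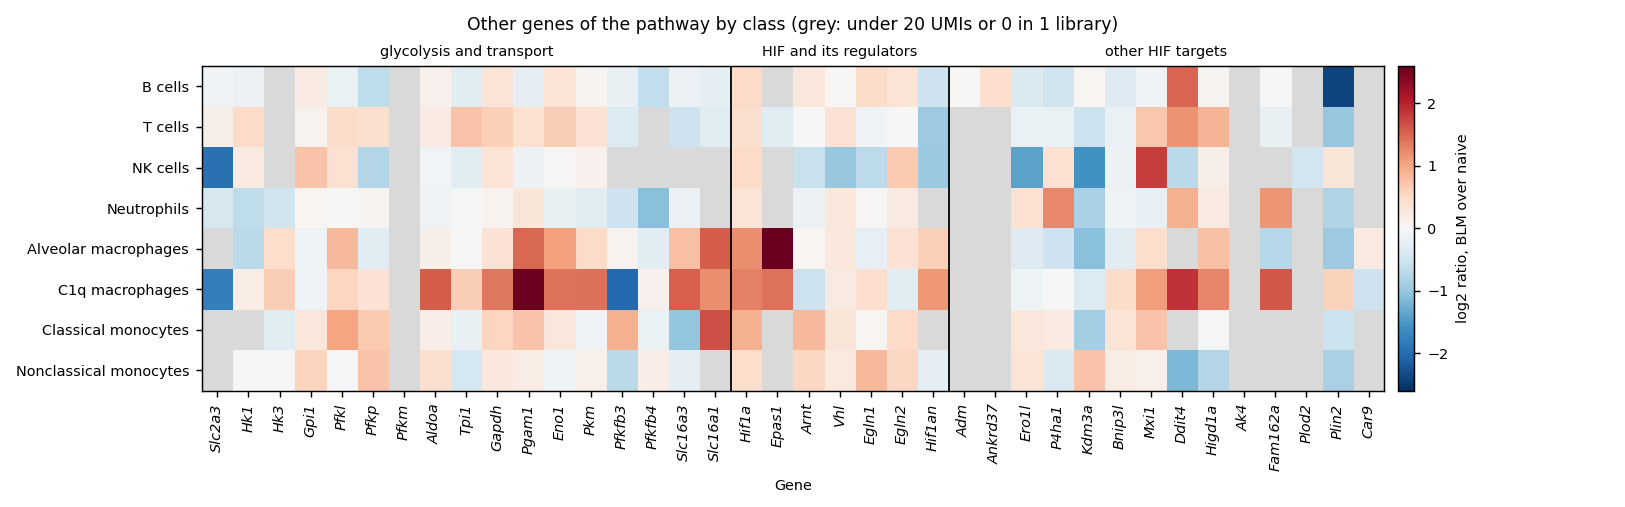
BLM to naïve log2 ratio (colour) of the 38 other genes of the pathway (columns, in 3 lists) in 8 classes (rows). Grey marks pairs under 20 UMIs or at 0 in a library. Red cells gather in C1q and alveolar macrophages, where 14 and 5 genes were called higher.

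The 10 genes did not share 1 pattern over classes. Over 20 combinations of class and library the closest pairs among them were *Vegfa* with *Slc2a1* (Pearson r of log2(CPM + 10) 0.70), *Slc2a1* with *Bnip3* (0.68) and *Hilpda* with *Ldha* (0.67), and the most opposed were *Vegfa* with *Pdk1* (-0.58) and *Ldha* with *Ndrg1* (-0.58). These combinations share library, depth and free RNA, so the values are descriptions. Among 6484 genes with enough signal the pattern most like that of *Hilpda* was that of *Cd200r1* (0.91), followed by *Ffar2* (0.85) and *Rnf128* (0.78). *Vegfa* was most like *Ccl3* (0.83), *Slc2a1* like *Rdh11* (0.89), *Bnip3* like *Slc25a33* (0.90), *Ldha* like *Eif5a* (0.88), *Ndrg1* like *Klf6* (0.84), *Pdk1* like *Zzz3* (0.84) and *Hk2* like *Emp1* (0.81). *Egln3* and *Pgk1* had no such close match, with 0.76 for *Krt83* and 0.73 for *Auh*.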

How the data were processed

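The authors processed BD Rhapsody whole transcriptome libraries with the BD pipeline version 1.8 on GRCm38 with GENCODE M19, per the file headers, and deposited UMI counts per gene and cell. The aligner was not given in the sources used here. Cells with at least 200 genes and at most 15% mitochondrial UMIs were kept. Scrublet (scanpy 1.11.5) called 9 BLM (0.199%) and 54 naïve barcodes, too few in BLM to be relied on, so the 3% of highest score were left out instead (127 and 114). A cell took the class with most distinct markers if it had at least 3 and led every other class by 2. Counts were summed per class and library and given as CPM with exact Poisson 95% intervals. Ratios had exact conditional (Clopper-Pearson) intervals, and a count of 0 took a floor of 3 counts. Calls needed 20 UMIs over both libraries and a 2-fold ratio. With 1 library per group no test was run. Pathway genes named are up to 3 per class with the largest called ratio. Patterns were compared by Pearson r over classes of 50 or more cells. The 10 genes, the lists and the gates were chosen with earlier results of these data known.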

Additional observations from a re-analysis of the deposited data

Results flagged for a closer look

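*Hk2* pointed in opposite directions in 2 classes with intervals that both excluded 0. Its log2 ratio of BLM to naïve was 1.60 (0.77 to 2.46) in nonclassical monocytes and -0.60 (-1.07 to -0.14) in T cells. The difference between the classes was not tested.

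Barcodes that failed the filter on genes and mitochondrial UMIs, which no comparison used, also carried the 10 genes. In the 188 BLM barcodes they summed to 907 CPM (331 UMIs), and in the 137 naïve barcodes to 540 CPM (154 UMIs), a log2 ratio of 0.75 (0.47 to 1.03).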

How the results depend on the processing

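Of 1022 BLM to naïve ratios recomputed under an alternative, 986 moved by less than their counting interval, 35 moved by more and 1 reversed. The Ldha log2 ratio in Nonclassical monocytes was -0.043 with clusters. With clusters *Vegfa* also reversed between BLM C1q macrophages split by *Spp1*, *Arg1* and *Gpnmb* (-0.41). The pairs called lower numbered 1, and 2 with a stricter gate, with each cell weighted equally or with a minimum of 10 UMIs, and 0 with a minimum of 50 UMIs. Other pathway genes were called higher in 26 pairs, in 17 with clusters and in 14 with 1 macrophage class (chosen after the data had been seen), and called lower in 10, or 6 with a minimum of 50 UMIs. In naïve *Foxp3* T cells 2 genes were called higher, and 1 with at least 2 *Foxp3* UMIs or with doublets kept. The pairs called higher stayed between 12 and 19. Of the 18 called pairs, 9 stayed past 2-fold under every alternative that gave a value for the pair. *Ndrg1* in alveolar macrophages, among these, had a value in only 9 alternatives. The 1 macrophage class was not part of this count, and there *Hilpda* (0.70) and *Pgk1* (0.79) were under 2-fold. With clusters 6 of the 18 were lost. None was lost without the 2% of cells with most UMIs of the gene (an alternative added after the data had been seen). The cause of these moves was not tested. No paired analysis was possible because each group was 1 library. With 1 pool of mice per group the intervals hold no spread between animals, and genes with few naïve UMIs, such as *Slc2a1* and *Ndrg1* in C1q macrophages, have wide ones.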

Other observations

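Ungated cells held 49.7% of all *Hilpda* UMIs of the BLM library with 37.2% of all UMIs, at 903 CPM against 325 CPM in ungated naïve cells. In naïve lungs 62.9% of *Hilpda* UMIs lay in alveolar macrophages, which held 37.1% of all UMIs. Neutrophils held 34.6% of the *Vegfa* UMIs of the BLM library with 6.9% of all UMIs.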
